A study of Mus musculus with 13 samples.

Results

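The transcription factors that direct progenitors into the B lineage were followed in EPLMs, early bone marrow progenitors that still hold lymphoid and myeloid potential and that normally go on mostly to B cells. The 10 genes Ebf1, Pax5, Bcl11a, Lef1, Bach2, Spi1, Runx1, Myb, Sox4 and Gfi1 were taken by name, with every probe set that carries only that gene symbol. They make up 10 of the 18193 genes and 38 of the 45037 probe sets of the Affymetrix mouse array used. The EPLM arrays held 3 BCS mice and 3 WT littermates, 1 mouse per array, among 13 arrays in all. BCS mice carry a transgene for human OBF1 with a C-terminal HA tag, driven by an Ig VH promoter and the Eμ enhancer, and WT mice lack it. Both genotypes were 7 weeks old and of B6CF1 x C57BL/6 strain, and the cells were sorted from bone marrow with B220+, c-kit+, CD93+ and NK1.1- among the gates. The promoter and enhancer can also be active in T cells, and the sources used here do not give which transgenic line the arrays came from. Each value is a GCRMA intensity, kept linear, and a change is the mean log2(intensity + 1) of BCS EPLMs minus that of WT EPLMs, given with its standard error (SE) and called at an adjusted p under 0.05 in limma. A gene is given by its brightest probe set.

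B lineage specification runs through a network of such factors. PU.1 (encoded by Spi1), Runx1 and Myb act early in lymphoid progenitors, and together with E proteins they allow EBF1 to be expressed. EBF1 then opens the B cell program and switches on Pax5, which activates B lineage genes and represses genes of other lineages, so that the cell is committed. OBF1 is a coactivator that Oct1 or Oct2 bring to octamer motifs.

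The start regions of the genes on which the results turn are shown because OBF1 and several of the 10 factors act through short motifs near promoters. They are RefSeq sequences of GRCm38.p6, 250 bases before to 50 bases after an annotated start, each read 5′ to 3′ on the gene's own strand, with any searched motif in capitals.
Ebf1, start 1, chr11:44617850-44618149, plus strand: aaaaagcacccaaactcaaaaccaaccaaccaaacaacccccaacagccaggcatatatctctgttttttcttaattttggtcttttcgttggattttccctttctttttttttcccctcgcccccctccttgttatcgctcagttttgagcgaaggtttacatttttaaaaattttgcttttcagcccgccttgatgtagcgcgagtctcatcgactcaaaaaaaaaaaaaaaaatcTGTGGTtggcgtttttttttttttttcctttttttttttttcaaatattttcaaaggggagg
Ebf1, start 2, chr11:44619978-44620277, plus strand: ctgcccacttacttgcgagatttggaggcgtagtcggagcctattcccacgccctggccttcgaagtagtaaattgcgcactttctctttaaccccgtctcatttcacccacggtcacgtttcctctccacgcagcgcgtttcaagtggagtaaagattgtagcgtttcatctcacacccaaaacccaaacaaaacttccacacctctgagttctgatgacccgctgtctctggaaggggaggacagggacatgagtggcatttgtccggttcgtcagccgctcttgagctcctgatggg
Pax5, chr4:44710645-44710944, minus strand: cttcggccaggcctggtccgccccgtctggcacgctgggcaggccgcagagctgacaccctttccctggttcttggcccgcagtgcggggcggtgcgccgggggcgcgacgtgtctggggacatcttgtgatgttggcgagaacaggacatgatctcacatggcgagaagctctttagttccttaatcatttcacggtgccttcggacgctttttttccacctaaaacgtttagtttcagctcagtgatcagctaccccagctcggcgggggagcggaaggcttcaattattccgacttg
Bcl11a, chr11:24080445-24080744, plus strand: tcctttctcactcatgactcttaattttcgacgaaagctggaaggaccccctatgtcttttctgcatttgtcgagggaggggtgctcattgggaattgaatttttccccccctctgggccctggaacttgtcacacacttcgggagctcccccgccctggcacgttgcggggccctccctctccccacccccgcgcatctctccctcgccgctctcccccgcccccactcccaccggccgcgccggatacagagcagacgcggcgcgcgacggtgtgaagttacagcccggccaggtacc
Runx1, start 1, chr16:92826025-92826324, minus strand: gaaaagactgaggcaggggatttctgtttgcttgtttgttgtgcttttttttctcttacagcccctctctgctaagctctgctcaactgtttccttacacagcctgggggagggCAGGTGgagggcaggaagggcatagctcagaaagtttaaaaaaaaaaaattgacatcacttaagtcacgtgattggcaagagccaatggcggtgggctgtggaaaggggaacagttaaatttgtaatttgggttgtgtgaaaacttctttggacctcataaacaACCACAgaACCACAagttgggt
The octamer (ATGCAAAT) was in 0 of the 15 start regions matched for 9 of the 10 genes, against 1.74% of all 32851 start regions in the table. The RUNX motif (TGTGGT) lay 12 bases before the first Ebf1 start, and its reverse complement lay 28 and 36 bases after the first Runx1 start. It was in 2 of the 15 regions and in 16.8% of all. The E-box CAGGTG, a motif of E proteins, was in the first Runx1 region 136 bases before the start and in 3 of the 15 regions, the others being 1 of Lef1 and 1 of Gfi1, against 20.2% of all. The EBF core (CCCNNGGG) was in 1 of 15 (Gfi1), against 13.7% of all, and the MYB motif AACGG in 1 of 15 (Bach2), against 17.4%. The PU box GAGGAAGT, the LEF/TCF motif CTTTGAT and the GFI1 core AAATCA were in 0 of 15, against 3.2%, 3.73% and 14% of all. Both strands were searched, and no matches of different motifs overlapped. A match is a match of letters only, and its absence says nothing about binding elsewhere. Octamer-like sites with other letters were not searched. For the Ebf1 promoter, the paper reports octamer-like motifs. Its preliminary chromatin immunoprecipitation found OBF1 bound there in Abelson cell lines from BCS but not WT mice.

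Of the 10 genes, 2 rose in BCS EPLMs (Ebf1 and Pax5), 1 fell (Bcl11a) and 7 were not called. Over all genes, 3.15% were called higher and 4.70% lower. By probe set, 5 of the 38 rose and 1 fell, against 2.24% of all probe sets called higher and 3.25% lower. The 5 that rose were 4 probe sets of Ebf1 and 1 of Pax5, so they stand for 2 genes. The intensities of the genotypes did not overlap in 4 genes, with BCS EPLMs higher in 2 (Ebf1 and Pax5) and lower in 2 (Bcl11a and Bach2), while 14.5% of all genes were separated in the higher direction and 14.2% in the lower. The median log2 change of the 10 genes was -0.01, and that of all 18193 genes 0.01. An unadjusted limma p under 0.05 was reached by 4 of the 10 genes and 13 of the 38 probe sets. Most of these probe sets are of Ebf1, Bcl11a and Bach2, so they read a few genes repeatedly. No share over all genes or probe sets was computed for an unadjusted p, here or below, so such counts have no background. With 3 mice against 3, an exact two-sided permutation test of a single gene cannot go below 0.1, which every gene with separated genotypes reached. In sorted populations, fewer cells of a type and less RNA per cell cannot be told apart.

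**Figure D1:**
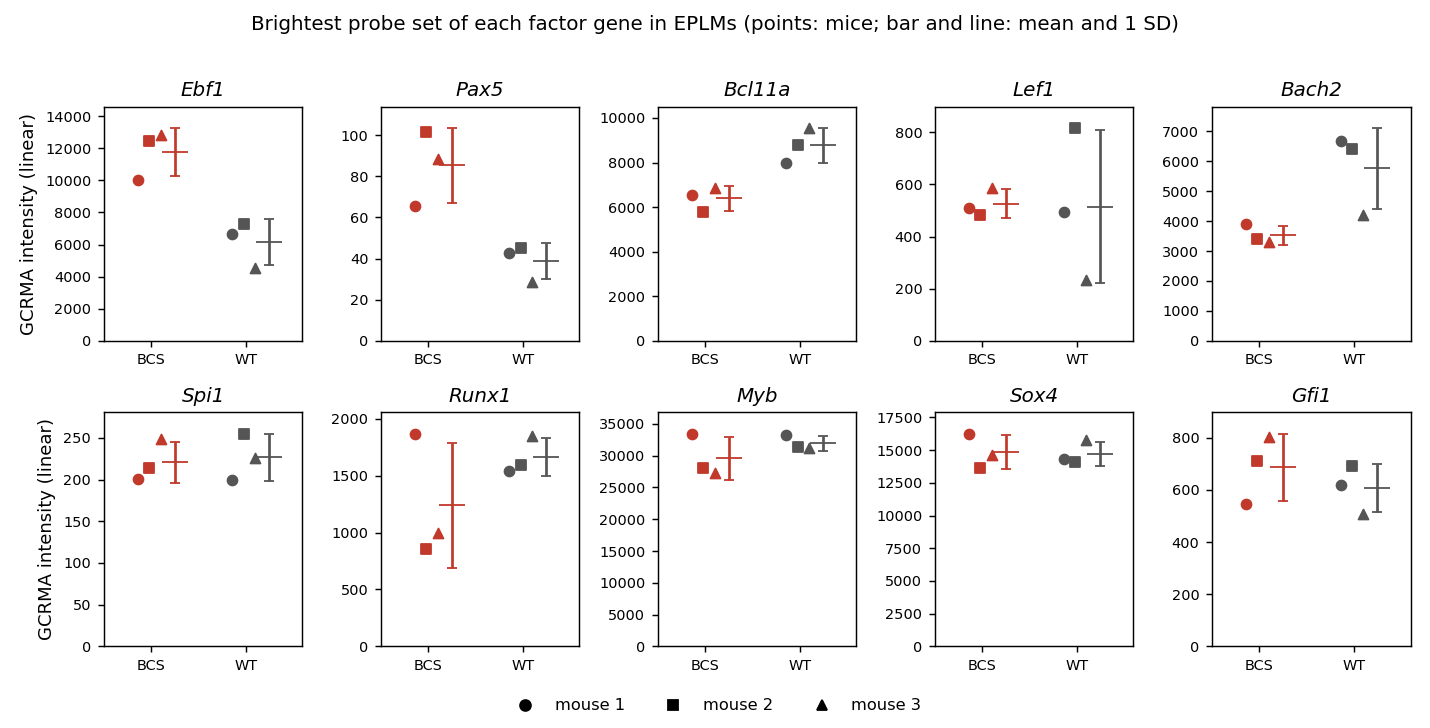
GCRMA intensity (linear, axis from 0, own scale for each gene) of the brightest probe set of each of the 10 factor genes, BCS EPLMs left and WT EPLMs right; points are mice and the bar and line are the mean and 1 SD of 3 mice. BCS and WT mice are separated in Ebf1 and Pax5 (BCS higher) and in Bcl11a and Bach2 (BCS lower), and overlap in the other 6.

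Ebf1 and Pax5, the factors of specification and commitment, were both higher in BCS EPLMs. The brightest Ebf1 probe set read 10038, 12425 and 12804 in BCS EPLMs, against 6681, 7264 and 4532 in WT EPLMs. All BCS mice were above all WT mice, and WT 3 was the lowest of the 6. The mean was 11756 ± 1499.8 in BCS EPLMs and 6159 ± 1439 in WT EPLMs (SD, n = 3 each). The log2 change was 0.95 (SE 0.17, 95% interval 0.57 to 1.34, limma adjusted p = 0.0124), which is 1.94-fold. A second bright Ebf1 probe set gave 6502, 7778 and 7871 in BCS EPLMs, against 3583, 4327 and 2234 in WT EPLMs. Its log2 change was 1.17 (SE 0.21, 95% interval 0.70 to 1.65, limma adjusted p = 0.0134), again with no overlap. The third gave 5695, 7644 and 5122 in BCS EPLMs, against 3797, 3145 and 2723 in WT EPLMs, and the fourth 3449.6, 3205 and 2769 in BCS EPLMs, against 1692, 2244 and 1138 in WT EPLMs. Their log2 changes were 0.93 (SE 0.16, limma adjusted p = 0.0129) and 0.94 (SE 0.22, limma adjusted p = 0.0420). The fifth is dim, with 13.9, 23.1 and 14.4 in BCS EPLMs, against 9.67, 14.4 and 10.7 in WT EPLMs, and was not called, with a log2 change of 0.51 (SE 0.20, 95% interval 0.05 to 0.97, limma adjusted p = 0.221). These probe sets read 1 transcript pool in the same mice and are not replicates of each other.

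The Ebf1 call depended in part on single mice. Without BCS 2 the log2 change of the brightest probe set was 0.91 (adjusted p = 0.0550) and without BCS 3 it was 0.89 (adjusted p = 0.0550), both from limma, and it was called in the other 4 fits that leave out 1 mouse. The second probe set was likewise lost without BCS 2, at 1.13 (adjusted p = 0.0572), and without BCS 3, at 1.13 (adjusted p = 0.0570). The third was called in 6 of 6 such fits and the fourth in 1 of 6, the fit without WT 2, with adjusted p of 0.0681 to 0.131 in the others. The markers of committed B cells summed to 27006, 27542 and 34914 in BCS EPLMs, against 22608, 30305 and 19980.1 in WT EPLMs. Most of this sum is Ighm, and 5 of the 7 markers (Cd22, Cd72, Ms4a1, Cd2 and Il2ra) had a lower mean log2 value in BCS EPLMs. Among WT mice, WT 3 was the lowest for Ighm and Ms4a1, and WT 1 for the other 5. Of the 7 markers measured, 0 were called higher or lower by limma, with 3 at an unadjusted p under 0.05, and their part in the Ebf1 rise was not tested.

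The brighter Pax5 probe set read 65.7, 102 and 88.3 in BCS EPLMs, against 42.5, 45.1 and 28.7 in WT EPLMs. Every BCS mouse was above every WT mouse, and WT 3 was again the lowest. The mean was 85.2 ± 18.2 in BCS EPLMs and 38.8 ± 8.80 in WT EPLMs (SD, n = 3 each). The log2 change was 1.12 (SE 0.24, 95% interval 0.58 to 1.66, limma adjusted p = 0.0286), which is 2.17-fold. The probe set was above the array median of 20 on all 6 arrays, with a mean over the 6 mice under 100. Pax5 was the only 1 of the 10 genes that was called and whose group medians were also at least 2-fold apart. The call was lost without BCS 2, at 0.98 (adjusted p = 0.111), without BCS 3, at 1.08 (adjusted p = 0.0946), without WT 1, at 1.20 (adjusted p = 0.0563), and without WT 3, at 0.92 (adjusted p = 0.0952), all from limma. The log2 change stayed between 0.92 and 1.29 in the 6 fits. The other Pax5 probe set lay under the array median in every mouse, at 13.7, 13.4 and 13.7 in BCS EPLMs, against 13.8, 15.9 and 14.7 in WT EPLMs. Its log2 change was -0.11 (SE 0.10, 95% interval -0.33 to 0.11, limma adjusted p = 0.628), so the probe sets of Pax5 disagree, and only the brighter one shows the rise. With the mean of both, the log2 change was 0.50 (limma adjusted p = 0.0615).

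Bcl11a, a zinc finger factor that mice need to form B cells, was lower in BCS EPLMs. Its brightest probe set read 6548, 5759 and 6863 in BCS EPLMs, against 7984, 8800.2 and 9535 in WT EPLMs. The highest BCS mouse was below the lowest WT mouse, and the spread within each genotype was small. The mean was 6390.0 ± 569 in BCS EPLMs and 8773 ± 776 in WT EPLMs (SD, n = 3 each), and the log2 change was -0.46 (SE 0.09, 95% interval -0.67 to -0.25, limma adjusted p = 0.0221). The 3 other probe sets with a mean over 100 had log2 changes of -0.22, -0.38 and -0.32 and were not called (adjusted p = 0.250, 0.0643 and 0.368 from limma). The second of these, at 5265, 5991 and 5973 in BCS EPLMs, against 8469, 6743 and 7244 in WT EPLMs, also had separated genotypes. The 3 dim probe sets ranged from -0.07 to 0.15. The Bcl11a call was lost without BCS 2, at -0.38 (adjusted p = 0.0740), without WT 2, at -0.45 (adjusted p = 0.0735), and without WT 3, at -0.40 (adjusted p = 0.0905), all from limma. Averaged over its 7 probe sets, Bcl11a had a log2 change of -0.18 (adjusted p = 0.382 from limma).

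Bach2, a repressor of myeloid and plasma cell genes, was the gene nearest to the threshold that did not pass it. Its brightest probe set read 3896, 3393 and 3309 in BCS EPLMs, against 6662, 6410.2 and 4213 in WT EPLMs. All BCS mice were below all WT mice, and WT 3 was lower than the other WT mice. The mean was 3532 ± 318 in BCS EPLMs and 5762 ± 1347 in WT EPLMs (SD, n = 3 each), and the log2 change was -0.68 (SE 0.17, 95% interval -1.06 to -0.30, limma adjusted p = 0.0504). Without WT 3 it was -0.89 (adjusted p = 0.00399), a call that also arose with robust variances (adjusted p = 0.0421) and with dim probe sets left out (0.0309), all from limma. The limma fit over 13 arrays gave an adjusted p of 0.0174. Its variances include large preB columns whose values do not follow the row names, so it cannot bear on the call. The other Bach2 probe sets had log2 changes of -0.55 and -0.55 (adjusted p = 0.187 and 0.232 from limma), with overlapping genotypes.

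Markers of plasmacytoid dendritic cells, which share B220 with EPLMs, were lower in the same direction as Bcl11a and Bach2. All 9 measured markers fell, and their intensities summed to 18387, 13055 and 14721 in BCS EPLMs, against 45726, 57597 and 57287 in WT EPLMs. None of the 9 was under the array median on every array or at 0, and their part in the lower Bcl11a and Bach2 values was not tested.

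Lef1, a nuclear partner of β-catenin that proB cells express, varied more between WT mice than between genotypes. Its brighter probe set read 509.8, 481 and 587 in BCS EPLMs, against 496, 816 and 233 in WT EPLMs. WT 2 was the highest and WT 3 the lowest of the 6 mice, 3.50-fold apart, while the BCS mice differed by 1.22-fold. The log2 change was 0.20 (SE 0.38, 95% interval -0.66 to 1.07, limma adjusted p = 0.846), and without WT 3 it was -0.28 (adjusted p = 0.656). The interval includes a 2-fold rise. The dimmer Lef1 probe set had the same WT order, with 33.7, 41.8 and 74.4 in BCS EPLMs, against 48.7, 63.8 and 14.9 in WT EPLMs, and a log2 change of 0.37 (SE 0.50, limma adjusted p = 0.769).

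**Figure D2:**
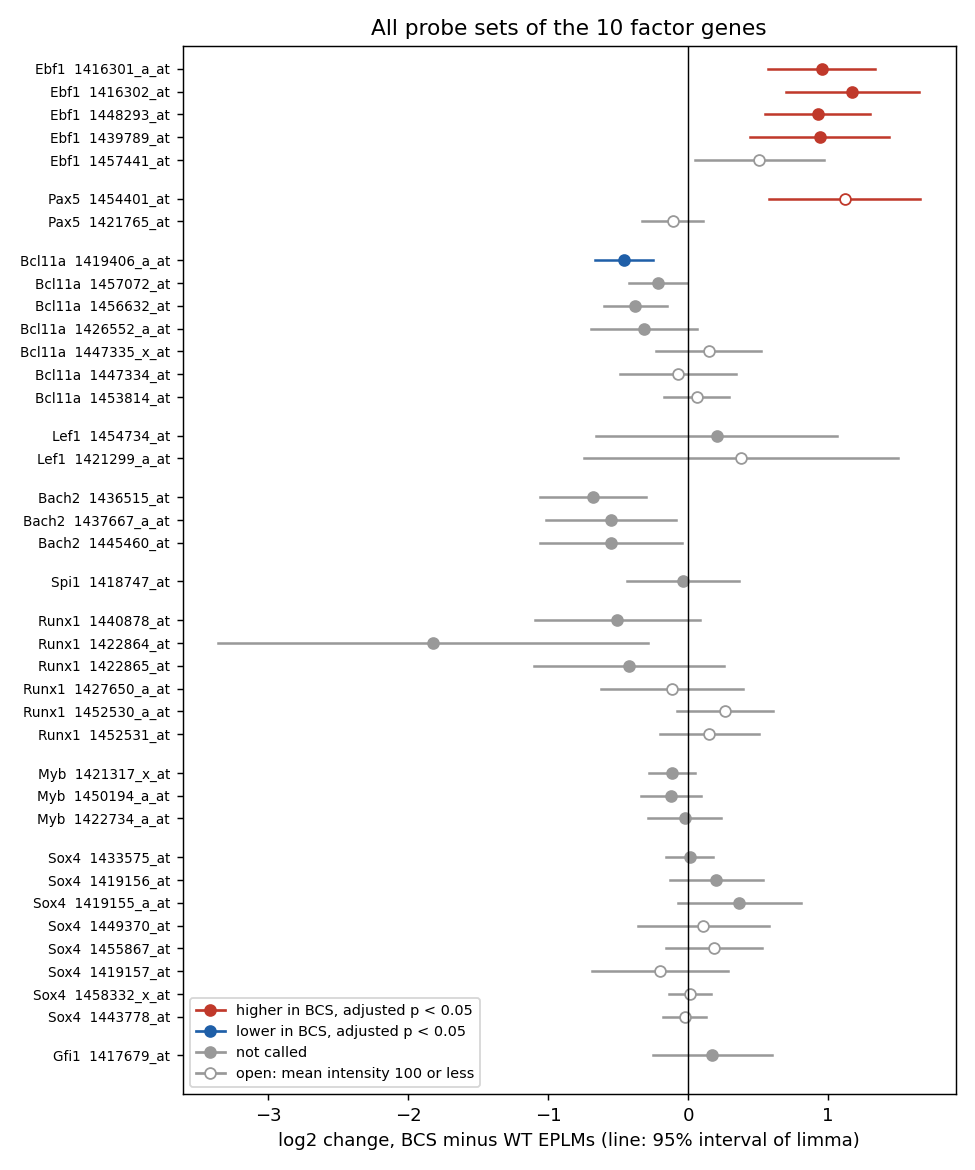
Log2 change of all 38 probe sets of the 10 genes (BCS minus WT EPLMs, x axis) with the 95% interval of limma; red marks those called higher in BCS, blue the 1 called lower, grey those not called, and open circles a mean intensity of 100 or less. The 4 bright Ebf1 probe sets lie between 0.93 and 1.17, all 3 Bach2 probe sets lie below 0 uncalled, and the second Runx1 probe set has the widest interval, -3.36 to -0.28.

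Spi1, Myb and Runx1 were not called. Spi1, which encodes PU.1, had 1 probe set, at 200.5, 214 and 248 in BCS EPLMs, against 199, 255 and 226 in WT EPLMs. The genotypes overlapped, and the log2 change was -0.04 (SE 0.18, 95% interval -0.44 to 0.36, limma adjusted p = 0.949). Myb, a factor needed throughout early lymphoid development, read 33441, 28000.0 and 27289.5 in BCS EPLMs, against 33303, 31409 and 31178 in WT EPLMs. BCS 1 was the highest of the 6 mice and the other 2 BCS mice the lowest, and the log2 change was -0.12 (SE 0.07, 95% interval -0.28 to 0.05, limma adjusted p = 0.460). Without BCS 1 it was -0.21 (adjusted p = 0.0376) from limma. This probe set is of the class whose probes can also match other transcripts. The probe sets of Igll1 and Sdc1 given below are of the same class. In the plasmacytoid dendritic cell list, those of Ccr9 and Cox6a2 are too. The next Myb probe set had a log2 change of -0.12 (SE 0.10, limma adjusted p = 0.574) and the third -0.03 (SE 0.12, limma adjusted p = 0.944).

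Runx1, a core binding factor of hematopoietic and lymphoid progenitors, split the BCS mice. Its brightest probe set read 1867, 856 and 992 in BCS EPLMs, against 1539.9, 1591 and 1849.8 in WT EPLMs. BCS 1 was the highest of the 6 mice, and BCS 2 and BCS 3 were the lowest. The log2 change was -0.50 (SE 0.26, 95% interval -1.09 to 0.08, limma adjusted p = 0.357), and without BCS 1 it was -0.84 (adjusted p = 0.0176). A second bright probe set showed the same split more strongly, at 1892, 377 and 204 in BCS EPLMs, against 2728, 1685 and 1409 in WT EPLMs. BCS 1 exceeded BCS 3 there by 9.28-fold and lay within the WT range. The log2 change was -1.82 (SE 0.68, 95% interval -3.36 to -0.28, limma adjusted p = 0.187), and without BCS 1 it was -2.75 (adjusted p = 0.00474), from limma. The third probe set over 100 read 132, 62.1 and 78.0 in BCS EPLMs, against 154, 96.0 and 105 in WT EPLMs, with a log2 change of -0.42 (SE 0.30, limma adjusted p = 0.525), and the 3 dim ones ranged from -0.11 to 0.26 and were not called.

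BCS 1 also stood apart in markers of other cells. The summed myeloid markers were 8027, 48512 and 34031 in BCS EPLMs, against 22855, 71988 and 22651 in WT EPLMs, and those of NK cells 1462, 4238 and 4162 in BCS EPLMs, against 8243, 14819 and 11059 in WT EPLMs. BCS 1 was the lowest mouse in both sums and the highest BCS mouse for Runx1. S100a8 and S100a9 make up most of the myeloid sum, and Klrd1 and Gzma most of the NK sum. Of the measured markers, 0 of 9 myeloid rose and 1 fell, and 0 of 8 NK rose and 2 fell. Myeloid Cd14 was under the array median in every mouse. The part of these cells in the Runx1 split was not tested.

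**Figure D3:**
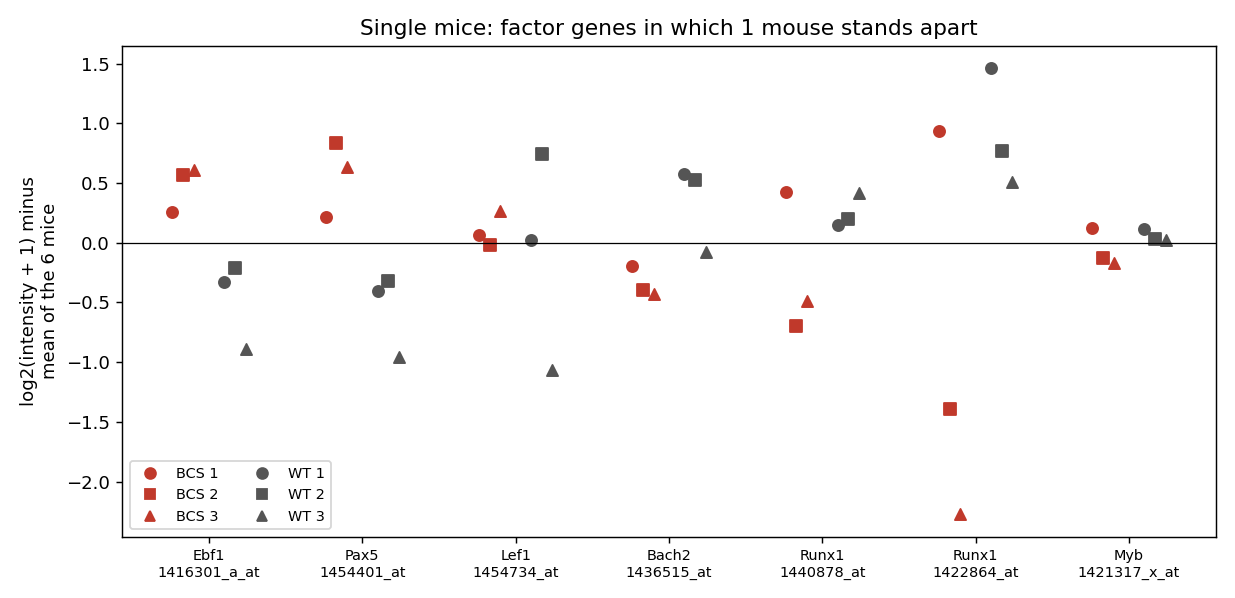
Log2(intensity + 1) of each mouse minus the mean of the 6 mice (y axis), for 7 probe sets of 6 factor genes chosen after their values were seen; red marks BCS mice and grey WT mice, and the shape gives the mouse number. WT 3 is the lowest mouse in Ebf1, Pax5 and Lef1, and BCS 1 lies apart from BCS 2 and BCS 3 in both Runx1 probe sets.

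Sox4, which supports the survival of proB cells, and Gfi1, a repressor that restrains Spi1, were not called. The brightest Sox4 probe set read 16249.5, 13637 and 14629 in BCS EPLMs, against 14336, 14058 and 15737 in WT EPLMs, with a log2 change of 0.01 (SE 0.07, 95% interval -0.16 to 0.18, limma adjusted p = 0.967). The genotypes overlapped, and the interval is among the narrower ones of the 10 genes. Of its 7 other probe sets, 5 had a mean of 100 or less, and none was called. The 2 brighter of them had log2 changes of 0.20 (SE 0.15, limma adjusted p = 0.542) and 0.36 (SE 0.19, limma adjusted p = 0.374). That last probe set read 873, 894 and 1339 in BCS EPLMs, against 865, 674 and 838 in WT EPLMs, with no overlap between the genotypes. Gfi1 had 1 probe set, at 548, 710.0 and 802 in BCS EPLMs, against 618, 692 and 509 in WT EPLMs. WT 3 was again the lowest mouse, the genotypes overlapped, and the log2 change was 0.17 (SE 0.19, 95% interval -0.25 to 0.60, limma adjusted p = 0.710).

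Across the 10 genes, WT 3 was the lowest of the 6 mice in 4 (Ebf1, Pax5, Lef1 and Gfi1) and the lowest WT mouse in 6, with Bach2 and Myb added. BCS 1 was the lowest of the 6 in 0 genes and the highest in 3. Over the probe sets with a mean over 100, the arrays correlated with r of 0.978 to 0.983 within a genotype and 0.931 to 0.949 between genotypes. The medians (20) and upper quartiles (339) of the whole arrays were the same. The probe sets whose profile over the 6 arrays was most like that of Ebf1, out of 13314 with a mean over 100, were of Top2a (r = 0.991), Snx27 (r = 0.989) and Sf3b2 (r = 0.988). For Pax5 they were of Asf1a (r = 0.998), Slc66a2 (r = 0.997) and Bcat1 (r = 0.995). The difference between genotypes enters these r, which describe 6 mice only. Those of Top2a and Sf3b2 are not the brightest of their genes. Of these 6 probe sets only that of Bcat1, an enzyme of branched-chain amino acid breakdown, was called, at 504, 1102 and 787 in BCS EPLMs, against 169, 236 and 96.2 in WT EPLMs, with a log2 change of 2.27 (SE 0.36, limma adjusted p = 0.00763).

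Of 19 listed paralogues of the 10 factors 16 were measured, and 0 rose and 0 fell by limma, with 2 at an unadjusted p under 0.05 and a median log2 change of 0.08. With 3.15% of all genes called higher and 4.70% lower, a count of 0 of 16 is near the background and says nothing particular of these genes. After Benjamini-Hochberg adjustment the methods' t-test also called 0. It called 0 of the 10 factors as well, so this adds nothing about the paralogues. Ebf2, Ebf3 and Ebf4, the other members of the EBF family, were under the array median, with mean intensities of 11.1, 13.3 and 10.2 in BCS EPLMs and 10.5, 13.3 and 10.3 in WT EPLMs. Among the brighter paralogues, Tcf7l2, of the LEF/TCF family, read 311, 293 and 314 in BCS EPLMs, against 418, 443 and 507 in WT EPLMs. The genotypes did not overlap, and its log2 change was -0.57 (SE 0.15, limma adjusted p = 0.0694). Spib, a close relative of Spi1, read 8606, 6101 and 6575 in BCS EPLMs, against 5683, 6035 and 5934 in WT EPLMs, with a log2 change of 0.25 (SE 0.12, limma adjusted p = 0.309). These paralogues were picked after their values were seen.

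Genes that EBF1 or Pax5 are known to activate moved in both directions. Of 18 listed, 16 were measured, 7 rose and 2 fell, and the median log2 change was 0.64. For comparison, 3.15% of all genes were called higher and 4.70% lower. Vpreb3, related to the surrogate light chain, read 1819, 1319 and 1695 in BCS EPLMs, against 328, 673 and 163 in WT EPLMs. Its log2 change was 2.27 (SE 0.42, limma adjusted p = 0.0160). Igll1, which encodes the λ5 part of the surrogate light chain, read 31071, 29224 and 30688 in BCS EPLMs, against 9542, 18818 and 7283 in WT EPLMs, with a log2 change of 1.47 (SE 0.28, limma adjusted p = 0.0166). In both genes WT 3 was the lowest mouse, as it was for Ebf1 and Pax5. Pou2af1, which encodes mouse OBF1, read 10784, 10858 and 10323 in BCS EPLMs, against 6278, 7250.1 and 3400.5 in WT EPLMs, a log2 change of 0.99 (SE 0.23, limma adjusted p = 0.0436). Whether its probes also read the human transgene is not known. By quantitative PCR the paper reports endogenous OBF1 RNA as raised in BCS EPLMs and not detectable in WT EPLMs. The WT intensities of Pou2af1 here lie far above the array median of 20, and the cause of this difference was not tested. The others that rose, named after their values were seen, were Cd79b, Vpreb1, Ciita and Fcer2a. The last 2 had mean intensities of 19.6 and 19.7 over the 6 mice, under the array median of 20, where signal over background is low. Cd79b was called in 6 of 6 fits with 1 mouse left out, and Vpreb1, Ciita and Fcer2a in 1 of 6 each, with limma adjusted p of up to 0.103, 0.155 and 0.129. In such fits 2 genes of the list were called without BCS 1, 3 without BCS 3, 3 without WT 1, 5 without BCS 2, 6 without WT 3 and 7 without WT 2, the last count with Bst1, which was not called with all mice. Vpreb3 was lost without BCS 1 (adjusted p = 0.0552) and BCS 3 (0.0623), Igll1 without WT 1 or any 1 of the BCS mice (0.0532 to 0.0616), and Pou2af1 without the same mice (0.0599 to 0.132), by limma.

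The 2 activated targets that fell moved opposite to Ebf1 and Pax5. Blk, a Src family kinase of B cells, read 955, 352 and 408 in BCS EPLMs, against 2240.5, 1749.8 and 2001 in WT EPLMs. It fell by 1.94 on the log2 scale (SE 0.33, limma adjusted p = 0.00998). Irf4, a factor of preB and plasma cells, read 279.5, 425 and 290.1 in BCS EPLMs, against 1332, 1531 and 588 in WT EPLMs, and it fell by 1.70 on the log2 scale (SE 0.34, limma adjusted p = 0.0217). Blk was called in 6 of 6 fits with 1 mouse left out and Irf4 in 2, those without BCS 2 or WT 3. In the other 4 the limma adjusted p of Irf4 was 0.0691 to 0.0813.

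Genes known to be repressed by Pax5 or EBF1 also divided. Of 15 listed, 14 were measured, 6 fell and 3 rose, and the median log2 change was -0.27. The background here too is 4.70% of all genes called lower and 3.15% higher. Sdc1, which encodes the plasma cell marker syndecan-1, read 248, 227 and 200.0 in BCS EPLMs, against 7043, 5118 and 8059 in WT EPLMs. It fell by 4.88 on the log2 scale (SE 0.18, limma adjusted p = 6.74e-06). The chemokine gene Ccl3 fell by 3.60 on the log2 scale (SE 0.20, limma adjusted p = 4.83e-05), with 15.8, 20.6 and 22.8 in BCS EPLMs, against 273, 216 and 257 in WT EPLMs. Csf1r, the receptor for M-CSF, fell by 2.40 on the log2 scale (SE 0.30, limma adjusted p = 0.00211), and Flt3, Emb and Notch1, named after their values were seen, fell as well. Id3 and Id2 encode inhibitors of E proteins and were higher. Id3 read 1626, 1536 and 1453 in BCS EPLMs, against 399.8, 511 and 324 in WT EPLMs, a log2 change of 1.92 (SE 0.18, limma adjusted p = 0.000445). Id2 read 8510.4, 11241 and 13873 in BCS EPLMs, against 3182, 5521 and 3592 in WT EPLMs, a log2 change of 1.46 (SE 0.22, limma adjusted p = 0.00563). The third that rose, Xbp1, had a log2 change of 0.37 (SE 0.08, limma adjusted p = 0.0237). Sdc1, Id2, Id3, Ebf1, Pax5 and Tcf12 are among the genes that the study itself names from these arrays, so their directions here are no independent evidence. Sdc1, Ccl3, Csf1r, Flt3, Emb, Id2 and Id3 were each called in 6 of 6 fits with 1 mouse left out. Notch1 was called in 1 of 6, the fit without BCS 1, with limma adjusted p of 0.116 to 0.159 in the others. Xbp1, also named after its values were seen, was called in 2, with limma adjusted p of 0.0604 to 0.0852 without BCS 2 or any 1 of the WT mice.

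**Figure D4:**
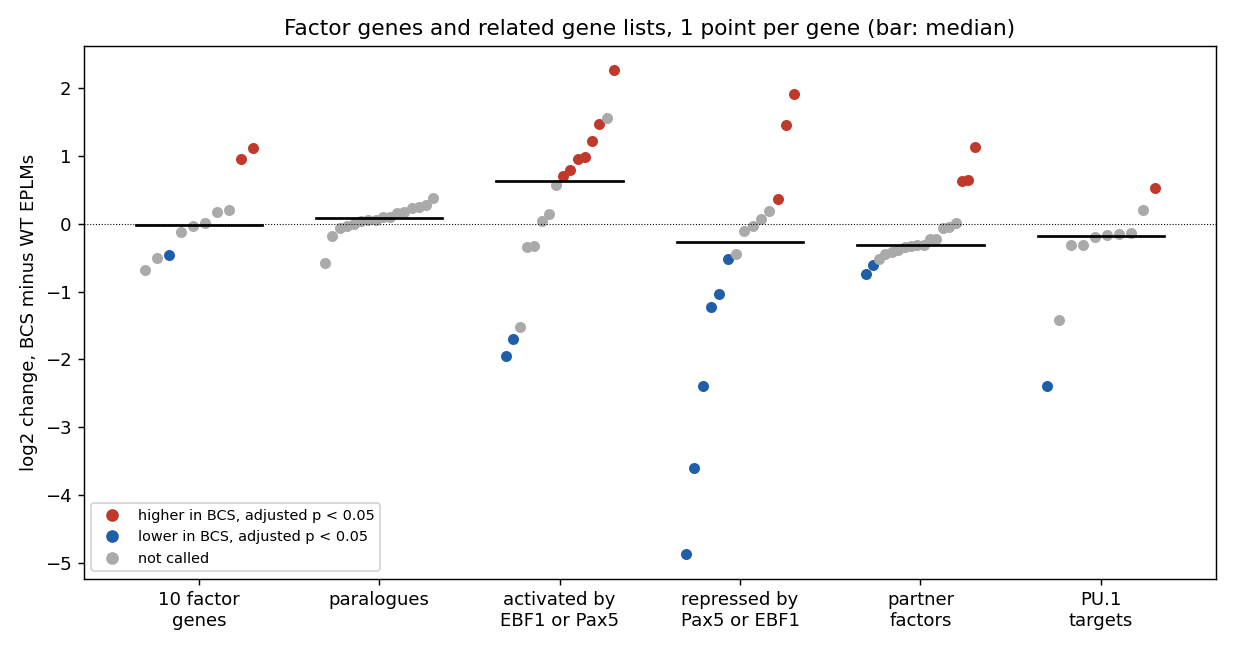
Log2 change (BCS minus WT EPLMs, y axis) of each gene of the 10 factors and of 5 related lists, 1 point per gene and a bar at the median of each list; red marks genes called higher in BCS, blue those called lower and grey those not called. The factor genes center on -0.01, while the activated targets center on 0.64 and the repressed targets on -0.27, each with called genes on both sides of 0.

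Among 18 other regulators of early B lineage cells, 3 rose and 2 fell, and the median log2 change was -0.31. These counts stand against 3.15% of all genes called higher and 4.70% lower. E protein genes went in different directions. Tcf12, which encodes HEB, read 34791, 32467 and 31923 in BCS EPLMs, against 14865, 14935 and 15431 in WT EPLMs, a log2 change of 1.13 (SE 0.05, limma adjusted p = 1.24e-05). Tcf4, which encodes E2-2, read 10882, 8410.3 and 9178 in BCS EPLMs, against 15126, 16006 and 16100.5 in WT EPLMs and fell by 0.74 on the log2 scale (SE 0.09, limma adjusted p = 0.00181). Tcf3, which encodes E2A, read 1844, 1722 and 1469 in BCS EPLMs, against 2415, 2450.1 and 1845 in WT EPLMs. Its genotypes did not overlap, though the log2 change of -0.41 (SE 0.15, limma adjusted p = 0.168) did not pass. The ETS family genes Erg and Ets1 had log2 changes of 0.65 (SE 0.13, limma adjusted p = 0.0201) and 0.64 (SE 0.09, limma adjusted p = 0.00465). Erg lost its call without BCS 1, BCS 3, WT 1 or WT 3 (limma adjusted p = 0.0625 to 0.0804), and Tcf12, Tcf4 and Ets1 were called in 6 of 6 such fits. Without BCS 1 the list held 9 called genes, 7 of them lower. The other that fell, Irf8, was named after its values were seen, with a log2 change of -0.60 (SE 0.07, limma adjusted p = 0.00156). Tcf4 also stands in the plasmacytoid dendritic cell list, of which all 9 measured genes were lower in BCS EPLMs, and the part of such cells in these values was not tested.

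Of 10 measured myeloid genes that PU.1 activates, Ncf4, a subunit of the phagocyte NADPH oxidase, rose and Csf1r fell, that is 1 of 10 in each direction, against 3.15% of all genes called higher and 4.70% lower, and the median log2 change was -0.18. Ncf4 read 2722, 2789.5 and 3304 in BCS EPLMs, against 2246, 1838 and 1994 in WT EPLMs, a log2 change of 0.54 (SE 0.12, limma adjusted p = 0.0352). It lost its call without BCS 2, BCS 3, WT 2 or WT 3 (limma adjusted p = 0.0826 to 0.116). Of the genes of the sort, Kit stood at -0.01 on the log2 scale (SE 0.14, limma adjusted p = 0.983) and Cd93 at 0.29 (SE 0.14, limma adjusted p = 0.322). For B220 the gene is Ptprc, and it was lower in BCS EPLMs by a log2 change of -0.40 (SE 0.07, limma adjusted p = 0.0101). Flt3 also fell, and Il7r had a log2 change of -0.23 (SE 0.11, limma adjusted p = 0.328). T cell markers summed to 504 to 739 in BCS EPLMs and 321 to 687 in WT EPLMs, with 1 of 7 (Lat) called higher and 1 (Cd8a) called lower. Lat makes up most of the sum in BCS EPLMs, and 6 of the 7 had a lower mean log2 value in BCS EPLMs. Erythroid markers summed to 112 to 175 in BCS EPLMs and 156 to 662 in WT EPLMs, with 0 of 4 called by limma and 2 at an unadjusted p under 0.05. No marker was at 0.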

How the data were processed

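EPLM RNA of 3 BCS and 3 WT mice was measured on Affymetrix mouse GeneChips, with an array for each mouse. The paper's methods state 2-cycle labeling and the labels 1-cycle labeling. The authors normalized the arrays with GCRMA and deposited the intensity of each probe set on a linear scale. The GCRMA version is not given in the sources used here. Methods name Expressionist for the analysis, with a Student t-test and a 2-fold median rule.

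Log2 of the intensity plus 1 was fitted with limma 3.58.1 in R 4.3.3 by lmFit and an eBayes step that follows the intensity trend. No covariate was used. Benjamini-Hochberg adjustment ran over 45037 probe sets. The 64 control features were left out. By the platform annotation, 34945 probe sets have 1 gene symbol, 932 several and 9160 none. A gene is represented by its brightest probe set with 1 symbol over the 6 EPLM arrays. The fit was tested on simulated data. Precision is limited by the number of arrays.

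The large preB arrays were left out because their values do not follow the row names: mean levels of the cell types correlated with r = 0.0944 over 45037 probe sets and 0.978 over the 64 control features. They enter only the alternative fit over 13 arrays.

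The 10 genes, the related gene lists, the markers and the motifs were chosen with earlier results of these data known. All 10 genes are named, and from each list the called genes with the 4 largest absolute changes and genes the study names, with 3 genes most like Ebf1 and 3 most like Pax5 by Pearson's r among other single-symbol probe sets with a mean over 100. Genes named beyond this are marked as chosen after their values were seen. Some further items are not reported here. Alternatives were the methods' t-test (log2 or linear scale), a filter that keeps probe sets over 100 on at least 3 arrays, robust eBayes variances, eBayes with no trend, quantile normalization, centring, a pseudocount of 16, a floor at 20, array weights, the replicate number as a block, a 2-fold rule, an adjusted p under 0.01, the most variable or the mean probe set, 1 fit over 13 arrays, and leaving out each mouse.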

Additional observations from a re-analysis of the deposited data

How the results depend on the processing

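The main counts were 2472 probe sets, 3 factor genes, 6 of their probe sets, 0 paralogues, 9 activated targets, 9 repressed targets, 5 partner factors and 2 PU.1 targets called, and 4 factor genes with separated genotypes. In that order, the first 8 counts were 267, 0, 0, 0, 0, 2, 1 and 0 by the methods' t-test on log2 values after Benjamini-Hochberg adjustment, and 164, 0, 0, 0, 0, 2, 1 and 0 on linear values. By the methods' t-test, 8 of the 38 factor probe sets had an unadjusted p under 0.05 and 0 had one under 0.01. The study's thresholds were also tried on the t-test of log2 values run here. That left 864 probe sets with 2-fold medians and a p under 0.01, 0 of them of the 10 genes. It was not the study's own Expressionist run. From its arrays the paper reports Pax5 and EBF1 as significantly raised in BCS EPLMs. Its quantitative PCR also found both higher. The main limma fit called both higher too, while the t-test rule run here did not. The cause of this difference was not tested. A floor at 20 gave 887 probe sets, 0 factor genes, 0 factor probe sets, 0 activated, 4 repressed, 1 partner and 0 PU.1 targets. It holds 44.6% of all probe sets at the floor on all 6 arrays, so that they have no spread. With 2-fold medians the counts were 1156 probe sets, 1 factor gene (Pax5), 2 factor probe sets, 1 partner factor and 1 PU.1 target. With an adjusted p under 0.01 they were 1057 probe sets, 0 factor genes, 0 factor probe sets, 2 activated and 1 PU.1 target. Without the intensity trend, 1 paralogue, 4 activated targets and 1 PU.1 target were called, with robust variances 5 activated targets, and with dim probe sets left out 1 paralogue and 9 partner factors. The mean of all probe sets per gene gave 1 factor gene and 1 paralogue, and the fit over 13 arrays, whose variances include the large preB columns, 1 paralogue and 1 PU.1 target. Bcl11a lost its call without the trend (adjusted p = 0.0696) and in the fit over 13 arrays (0.118), both from limma. The fit over 13 arrays cannot bear on a single gene, since the large preB values do not follow the row names. The cause of these shifts was not tested.

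Leaving out 1 mouse gave 1401 to 2241 probe sets, 0 (without BCS 2) to 5 (without BCS 1) factor genes, 1 to 8 factor probe sets, 0 paralogues in every fit, 2 to 7 activated and 7 to 9 repressed targets, 4 to 9 partner factors and 1 to 2 PU.1 targets. Genotypes were separated in 4 to 7 factor genes. Leaving out a mouse cannot make separated genotypes overlap, so this count could not fall and is no check. Its share over all genes was not computed for these fits. No called value changed its sign under any alternative run.

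Deviations of same-numbered mice from their genotype means correlated with r = 0.0056, 0.0962 and 0.104 over 14957 probe sets. Those of differently numbered mice correlated with r of -0.218 to 0.105. With so few mice, these values cannot settle whether the replicate numbers pair mice. With the number as a block, 1920 probe sets, 4 factor genes (Bach2 added, adjusted p = 0.0296 from limma), 9 factor probe sets and 1 PU.1 target were called. Quantile normalization and centring of the arrays moved none of the counts by over 1.5 times. The deposited arrays already shared their medians and upper quartiles, so these settings could change little and are no check of the counts. Of the 38 factor probe sets, 6 were under the array median of 20 on all arrays, and 15 had a mean of 100 or less, Pax5 among them, where signal over background is low.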
